A study of Mus musculus with 43 samples.

Results

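The 9 genes described here encode acetylcholine receptors: the muscarinic receptors *Chrm1* to *Chrm5* and the nicotinic subunits *Chrna4*, *Chrna5*, *Chrna7* and *Chrnb2*. They were listed by name, with no threshold on their values, out of 35825 genes tabulated for 43 neurons of the lateral nucleus accumbens that project to the ventral tegmental area (NAcLat→VTA). Each neuron was found by retrogradely transported beads injected in the VTA, recorded, and emptied through the patch pipette, and its polyadenylated RNA was amplified as 1 library. The mice were C57BL/6J of both sexes, 6–8 weeks old at the start, and carried no transgene for this experiment. REG mice ate regular chow (23 cells), and HFD mice had 60% fat chow beside standard chow for at least 4 weeks (20 cells). By the labels, batch 1 held 13 REG and 5 HFD cells, and batch 2 held 10 REG and 15 HFD cells. The study counts 10 REG and 11 HFD mice, but the mouse of each cell is not in the labels used here. Cells of 1 mouse are not independent, so each diet counts as 1 sample and no test between diets was made. Binomial intervals of shares of cells treat the cells as independent, and Poisson intervals cover the counting error of summed counts. Neither covers the spread between mice.

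Acetylcholine in the accumbens is released mainly by local cholinergic interneurons, and it acts on 2 receptor families. Muscarinic receptors couple to G proteins: M1, M3 and M5 (*Chrm1*, *Chrm3*, *Chrm5*) to the Gq class, which activates phospholipase C, and M2 and M4 (*Chrm2*, *Chrm4*) to the Gi/o class, which lowers cyclic AMP. M4 is known in the striatum for opposing D1 dopamine receptor signalling in medium spiny neurons that express D1, and M1 is found in medium spiny neurons of both the D1 and the D2 type. Nicotinic receptors are ion channels of 5 subunits, of which α4 and β2 (*Chrna4*, *Chrnb2*) form the most common brain type, α5 (*Chrna5*) joins such channels as an accessory subunit, and α7 (*Chrna7*) forms channels alone.

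What a count of these genes means depends on the transcript model that reads were matched to. In the Ensembl annotation of the GRCm38 mouse genome, *Chrm4* (chr2:91927249-91928688, plus strand) and *Chrm5* (chr2:112479171-112480769, minus strand) are single exons of 1440 and 1599 bases that begin at the start codon and end at the stop codon, as only 3.06% of 21951 protein-coding genes do. The ends of both models are shown because they mark what was countable. The start and stop codons are in capitals.

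Chrm4, first 30 bases: ATGgcgaacttcacacctgtcaatggcagc

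Chrm4, last 30 bases: cagtatcggaacatcggcacagccaggTAG

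Chrm5, first 30 bases: ATGgaaggggagtcttatcacaatgaaacc

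Chrm5, last 30 bases: tattggcaaggcaacagcaagctacccTGA

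The RefSeq start of *Chrm4* lies 5060 bases upstream of the Ensembl model, and transcript bases outside the coding part were not countable. The length implied by the deposited values, the estimated count over the TPM calibrated on genes with 1 transcript, was 1440 bases for *Chrm4* in each of the 19 cells where it was computed, and 1599 bases for *Chrm5*. For *Chrm1* (chr19:8663789-8683587, plus strand), which has 3 transcripts, the implied length had a median of 4679 bases. Counts scaled to a sum of 1000000 in each cell (CPM) are thus low for *Chrm4* and *Chrm5* beside the other receptors for the same number of transcripts. Levels of different genes are compared here only as TPM, the transcript level scaled to the same sum after division by the model length, and diets are compared as CPM. That division makes up for a short model only where reads cover the transcript evenly, which was not checked.

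The other genes have models with untranslated exons. *Chrm2* lies at chr6:36388084-36528414 (plus strand), *Chrm3* at chr13:9875486-10360847 (minus), *Chrna4* at chr2:181018380-181043546 (minus), *Chrna5* at chr9:54980880-55007779 (plus), *Chrna7* at chr7:63098692-63212569 (minus) and *Chrnb2* at chr3:89746195-89764632 (minus). *Chrnb2* shares 1365 exon bases with *Adar*, an RNA-editing enzyme gene on the opposite strand, and 15.05% of its 31-base words occur in *Adar*. The library kit marks no strand, so reads of that stretch cannot be told apart. Only 1 of the 23 *Chrnb2* counts above 0 was whole to within 0.01, against 26 of 26 for *Chrm4*, and *Adar* had counts in 40 cells, including all 23 with *Chrnb2*. Every cell with *Chrm2*, *Chrm3*, *Chrna4*, *Chrna5* or *Chrna7* held *Adar* too, so its presence beside *Chrnb2* tells little. The shared stretch leaves *Chrnb2* values uncertain, and how much of them comes from *Adar* was not tested. Of the *Chrm1* words, 5.28% occur in other genes, mostly in *Gm22820*, an antisense RNA absent from the tables.

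The total count of a cell had a median of 1426795 (from 176961 to 16919555), and the diets had medians of 1427698 (REG) and 1416982 (HFD). In the median cell 3 counts are worth 2.10 CPM, and in the shallowest 16.95 CPM. The cells were checked against marker genes: *Drd1*, which defines the D1 medium spiny neuron, had counts in all 43 cells, and 36 cells had at least 4 of 6 D1 markers above 15 CPM. At least 4 of 5 D2 markers passed that level in 3 cells, at least 4 of 7 microglia markers in 6 cells, and at least 4 of 6 cholinergic interneuron markers in none, with *Slc18a3*, the vesicular acetylcholine transporter, at 0 throughout. At least 4 of 6 somatostatin and parvalbumin interneuron markers passed it in 1 cell, REG cell 23. At least 4 of 6 astrocyte markers did in 1 cell, and at least 4 of 7 oligodendrocyte lineage markers in 1. In 9 cells no oligodendrocyte lineage marker passed it.

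*Chrm1* was the most widely found receptor gene, followed by *Chrm4* and *Chrnb2*. Like CPM, the share of cells with a count is lowered by the short models of *Chrm4* and *Chrm5*. This order is therefore one of detection and not of level. *Chrm1* had a count above 0 in 40 of 43 cells (93.0%, exact binomial 95% interval 80.9–98.5%), *Chrm4* in 26 (60.5%, 44.4–75.02%) and *Chrnb2* in 23 (53.5%, 37.7–68.8%). *Chrm3* followed with 14 cells, *Chrna4* with 11, *Chrna7* with 9, *Chrna5* with 8, *Chrm2* with 6 and *Chrm5* with 1. Thinned to 150000 counts per cell, which is below every cell's total, the order began in the same way with 33, 18 and 17 cells, whereas *Chrm3* fell to 2 cells. Of the 14 cells with *Chrm3*, 12 held fewer than 10 counts of it.

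**Figure D1:**
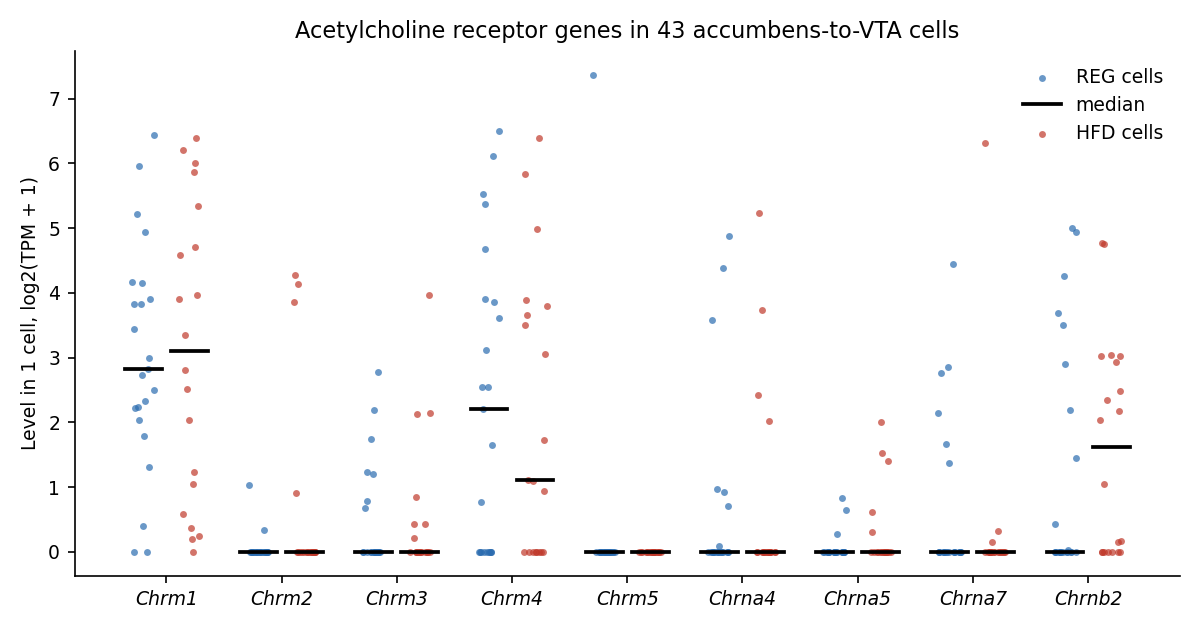
Each point is 1 cell's level of 1 receptor gene as log2(TPM + 1), blue for the 23 REG cells and red for the 20 HFD cells, with the median of each diet as a black bar and sideways scatter added for legibility. *Chrm1* points spread from 0 to 85.8 TPM in REG cells and from 0 to 83.1 TPM in HFD cells. The medians of *Chrm2*, *Chrm3*, *Chrm5*, *Chrna4*, *Chrna5* and *Chrna7* lie at 0.

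As levels per length, *Chrm1* had the highest median (6.10 TPM), then *Chrm4* (2.15 TPM) and *Chrnb2* (0.11 TPM), and the other 6 genes had a median of 0. The spread over cells was wider than the gaps in this order, with interquartile ranges of 1.97 to 20.1 TPM for *Chrm1*, 0 to 13.2 TPM for *Chrm4* and 0 to 6.54 TPM for *Chrnb2*. Within a cell, the *Chrm1* level exceeded that of *Chrm4* in 27 cells, *Chrm4* exceeded *Chrm1* in 15, and both were 0 in 1. These comparisons of *Chrm4* with other genes assume even coverage of the transcripts. By mean level the neighbours *Chrm1* and *Chrm4* stood at 17.6 ± 23.95 and 13.1 ± 22.8 TPM (SD over 43 cells), and *Chrnb2* at 4.88 ± 8.54 TPM. Among the 10802 genes that passed the filter on low values (above 15 CPM in at least 5 cells and a mean above 4 CPM), the median level of *Chrm1* stood at percentile 51.3, that of *Chrm4* at 35.6 and that of *Chrnb2* at 14.5. Of the 9 receptor genes, only these 3 passed that filter, which uses CPM and so is harder to pass with a short model.

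*Chrm1* ranged in REG cells from 0 through a median of 19.8 to 240 CPM, and in HFD cells from 0 through a median of 26.0 to 216 CPM. The diets overlapped over nearly the whole range. The cells without *Chrm1* were REG cells 1 and 18 and HFD cell 10, and the 5 highest were REG cell 16, HFD cell 16 (216 CPM), HFD cell 20 (183 CPM), HFD cell 5 (172 CPM) and HFD cell 12 (158 CPM). REG cells averaged 42.9 CPM and HFD cells 60.8 CPM, which gives a log2 ratio (HFD over REG) of 0.50, and of 0.84 without REG cell 16. The batches differed: 30.9 against 72.2 CPM in batch 1 (log2 ratio 1.23), and 58.5 against 57.0 CPM in batch 2 (−0.04). The difference of mean log2(CPM + 1) was −0.04, so the direction turned with that scale.

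*Chrm4* ranged in REG cells from 0 through a median of 2.83 to 75.02 CPM, and in HFD cells from 0 through 0.98 to 58.6 CPM. Its shares of cells were nearly equal, with 14 of the 23 REG cells (60.9%) and 12 of the 20 HFD cells (60.0%). REG cells averaged 10.8 CPM and HFD cells 8.46 CPM, so the log2 ratio was −0.35, with −0.55 in batch 1 and −0.78 in batch 2. A single cell decided the sign: without REG cell 16, the highest, the ratio was 0.10, and without HFD cell 20 it was −0.89. REG cell 16 also held the highest *Chrm1*, and its *Drd1* was 0.72 CPM, the lowest of the 43 cells. It was 1 of the 3 cells with at least 4 of 5 D2 markers above 15 CPM, with *Adora2a* at 73.6 CPM and *Penk* at 51.9 CPM. Its *Drd2* count was 0, and the D1 markers *Tac1* and *Pdyn* were at 234 and 729 CPM.

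The *Chrm4* ratio also changed when cells with microglia markers were left out. The 6 cells with at least 4 microglia markers above 15 CPM comprised 2 REG and 4 HFD cells. Among them were HFD cells 20 and 16, the highest HFD cells for *Chrm4* with 58.6 and 41.6 CPM. Without these 6 cells 21 REG cells averaged 11.1 CPM and 16 HFD cells 4.27 CPM, and the log2 ratio was −1.38. The microglia markers *Csf1r* and *P2ry12* were higher in HFD cells, with log2 ratios of 2.07 and 2.27, and the summed CPM of all 7 markers ranged from 0.34 to 1326 in REG cells and from 2.61 to 1467 in HFD cells, with medians of 50.8 and 52.3. Their part in the *Chrm4* values was not tested.

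**Figure D2:**
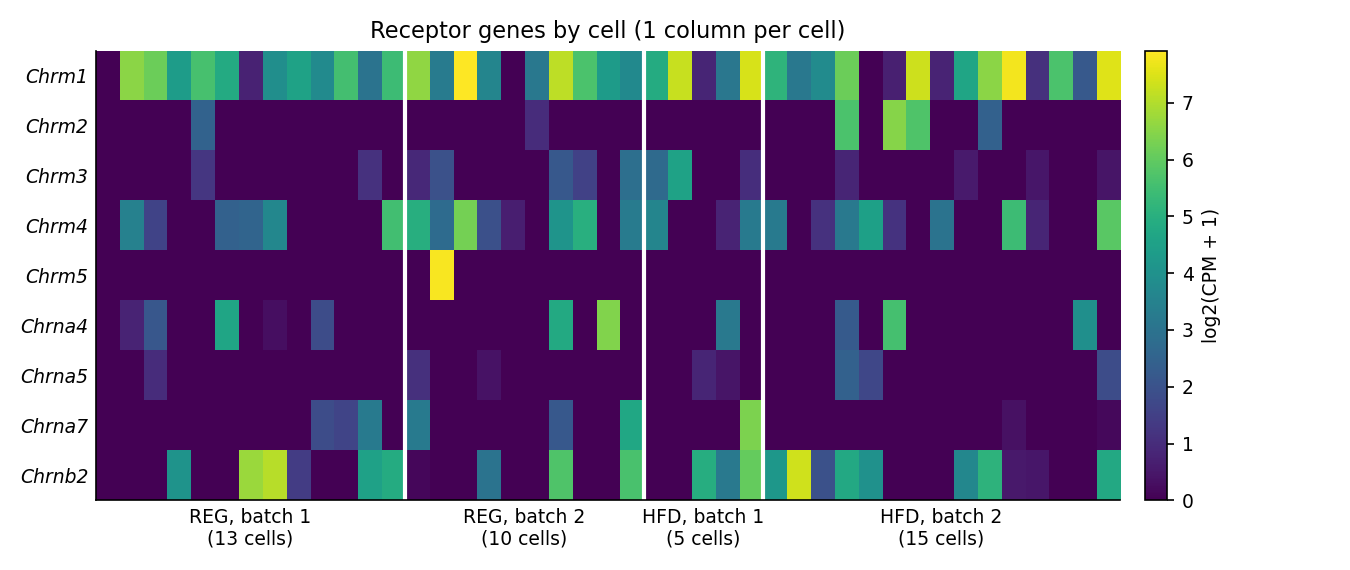
Rows are the 9 receptor genes and each column is 1 cell, grouped by diet and batch, with colour giving log2(CPM + 1). *Chrm1* is lit in 40 columns and *Chrm4* in 26, whereas *Chrm5* is lit in 1 REG column of batch 2 and the strong *Chrm2* columns all lie in HFD cells of batch 2.

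**Figure D3:**
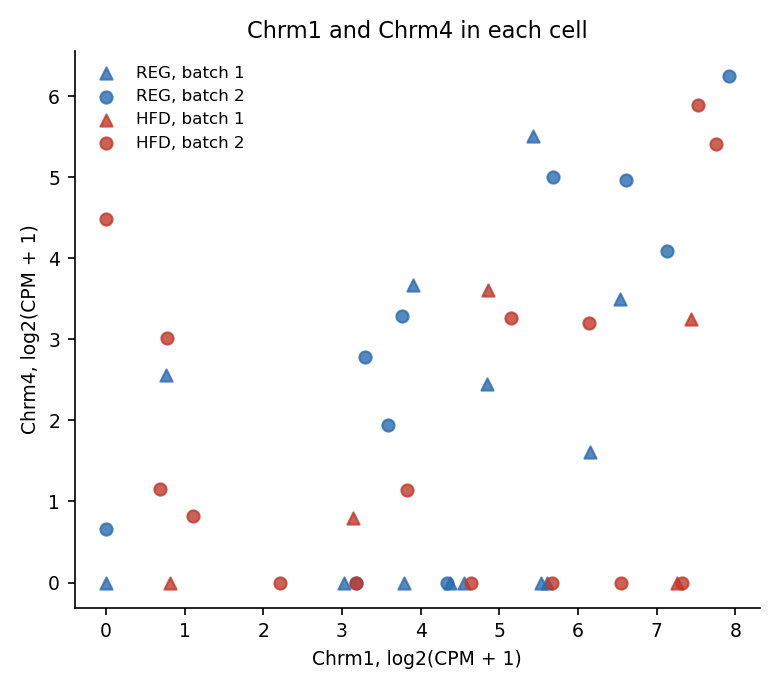
Each point is 1 cell, with *Chrm1* on the horizontal axis and *Chrm4* on the vertical axis, both as log2(CPM + 1), coloured by diet and shaped by batch. The 16 cells with *Chrm1* alone lie along the bottom, and the point at the upper right is REG cell 16 (240 CPM of *Chrm1* and 75.02 CPM of *Chrm4*).

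*Chrm2*, the Gi/o-coupled receptor known as an autoreceptor of cholinergic neurons, was found in 2 REG and 4 HFD cells. The REG cells held 10 counts (4.61 CPM, REG cell 5) and 1 count (0.996 CPM, REG cell 19). Among the HFD cells, HFD cell 11 had 143 counts (87.5 CPM), HFD cell 12 had 75 (52.6 CPM), HFD cell 9 had 67 (50.2 CPM) and HFD cell 15 had 2 (4.50 CPM). The 3 high cells all belonged to batch 2 and HFD. *Chat*, the acetylcholine-synthesizing enzyme, was at 0.61 CPM in HFD cell 11 and 0 in the other two, and *Drd1* was between 132 and 344 CPM in all 3. Of the 6 cholinergic interneuron markers, 2 were above 15 CPM in HFD cell 11, 1 in HFD cell 12 and 1 in HFD cell 9. HFD cell 11 also carried the interneuron peptides *Sst* (180 CPM) and *Npy* (35.5 CPM), the second highest *Chrna4* level of the series (46.5 CPM) and hardly any *Chrm1* (0.61 CPM). The mean of *Chrm2* was 0.24 CPM in REG and 9.74 CPM in HFD cells, and the 3 high cells set the latter.

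*Chrm3* and *Chrm5*, the other Gq-coupled receptors, were rare. *Chrm3* had 7 cells in each diet, with at most 22 counts in a REG cell (REG cell 23, 6.44 CPM) and at most 6 in an HFD cell (HFD cell 2, 22.8 CPM). REG cell 23 had 4 of 6 somatostatin and parvalbumin interneuron markers above 15 CPM, with *Sst* at 51.6 and *Npy* at 26.7 CPM. It also had 4 of 6 D1 markers above 15 CPM. The HFD maximum came from a cell of 262790 counts in total, and the summed counts were 53 in REG and 17 in HFD cells (exact Poisson 95% intervals 39.7–69.3 and 9.90–27.2). On means the log2 ratio was 0.99, on summed counts over summed totals it was −1.21, and by batch it was 4.90 and −3.57, so no direction can be read. *Chrm5* was found in REG cell 15 alone, at 77 counts (226 CPM, 164 TPM), the highest TPM of any of the 9 genes in any cell. That cell had 340778 counts in total, with 4 D1 markers and 2 of 6 astrocyte markers (summed 211 CPM) above 15 CPM. It also held *Chrm1*, *Chrm3* and *Chrm4*, but with only 3, 1 and 2 counts. In HFD cells *Chrm5* had 0 counts in 20 cells.

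Among the 4 nicotinic subunits *Chrnb2* was found in the most cells. It ranged in REG cells from 0 through a median of 0 to 133 CPM, and in HFD cells from 0 through a median of 5.55 to 161 CPM. Counts were found in 10 REG cells (43.5%) and in 13 HFD cells (65.0%), and with 1 sample per diet these shares were not compared by a test. The highest were HFD cell 7 (161 CPM from 41.7 counts, in a cell of 258089 counts with 5 microglia markers above 15 CPM), REG cell 8 (133 CPM) and REG cell 7 (105 CPM). The means were 18.02 and 19.97 CPM, a log2 ratio of 0.15, with −0.19 in batch 1 and 0.86 in batch 2. Without HFD cell 7 it was −0.52 and without REG cell 8 it was 0.64, so 1 cell turned the direction.

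*Chrna4*, the usual partner of *Chrnb2*, had counts in 7 REG and 4 HFD cells. Its highest levels were 83.8 CPM (REG cell 22), 46.5 CPM (HFD cell 11), 27.1 CPM (REG cell 20) and 24.2 CPM (REG cell 6), and the diets overlapped. The log2 ratio was −0.76, with −0.55 in batch 1 and −1.36 in batch 2, but 0.46 without REG cell 22, −2.15 without HFD cell 11 and 0.32 with DESeq2 size factors. *Chrna5* stayed below 5 CPM in each of its 8 cells, with 23 counts in 3 REG cells and 33.0 in 5 HFD cells. The log2 ratio of 2.28 for *Chrna5* (1.54 and 2.10 by batch) rests on few counts. HFD cell 9, with 6 counts (4.49 CPM), made up 43.3% of the HFD sum, and the ratio was 1.54 without it, 3.09 without REG cell 14 and 0.20 after thinning.

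*Chrna7*, whose homomeric channels pass calcium, was found in 6 REG and 3 HFD cells. HFD cell 5 alone had 316 of the 318 HFD counts (81.4 CPM), and the other two HFD cells had 1 count each. The REG cells held 147, 87, 7, 7, 1 and 1 counts, with 25.5 CPM as the highest (REG cell 23, the cell with somatostatin and parvalbumin interneuron markers). The means of 2.20 and 4.09 CPM gave a log2 ratio of 0.89, which was −6.67 without HFD cell 5.

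Between diets, none of the 3 receptor genes that passed the filter reached a log2 ratio of 1 in either direction. Over all 10802 filtered genes, 23.3% were at or past 1 in size, 9.04% higher and 14.3% lower in HFD cells, and the median was −0.13, so 3 genes can show little against that background. The median of the 3 was 0.15. In batch 1 alone 1 of the 3, *Chrm1*, was past 1, where 41.5% of 10670 genes were. In batch 2 alone none was, where 34.5% of 10783 genes were. Without the cells with microglia markers 1 of the 3, *Chrm4*, was past 1, where 28.0% of 10796 genes were. With no filter and a count in each diet, *Chrm2* and *Chrna5* were past 1 among 8 receptor genes, where 40.2% of 18731 genes were. Fewer transcripts per cell and a lower yield of RNA from a cell cannot be told apart in these libraries.

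**Figure D4:**
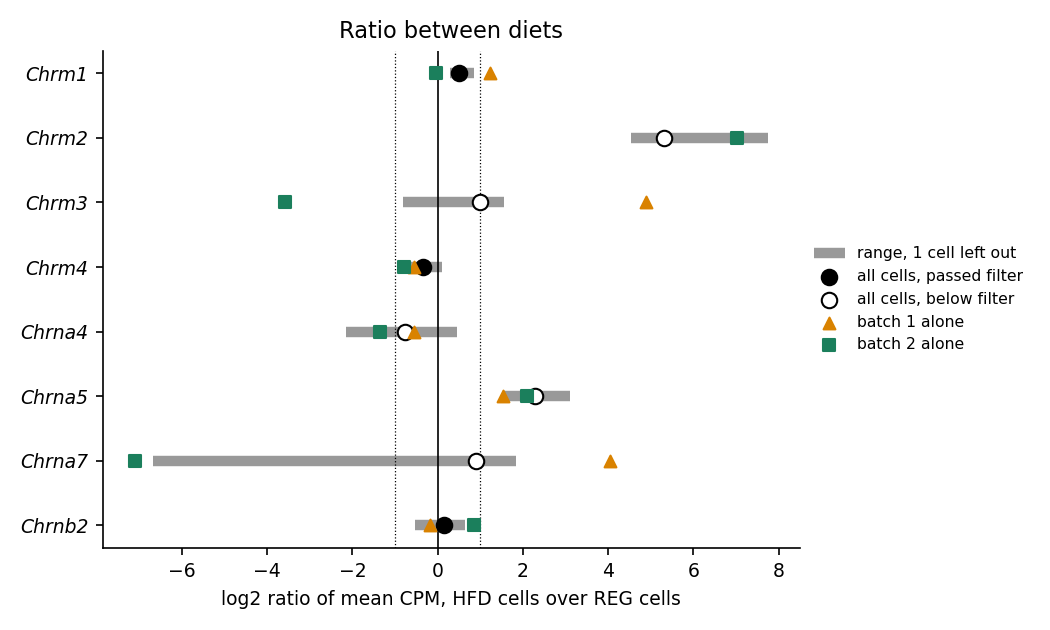
The horizontal axis is the log2 ratio of mean CPM in HFD cells over REG cells, with dotted lines at −1 and 1, for the 8 receptor genes with a count in each diet. Circles give all cells (filled where the gene passed the filter), triangles batch 1, squares batch 2, and grey bars the range when any 1 cell is left out. The filled circles at 0.50, −0.35 and 0.15 lie between the dotted lines, and *Chrm1*, *Chrm3*, *Chrna7* and *Chrnb2* have batch values on opposite sides of 0.

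Receptor genes were usually found in combination. A cell held a median of 3 of the 9 (0 to 7), and the number found had a Spearman correlation of 0.54 with the total count over the 43 cells. Thinned to equal counts, the median was 2 (0 to 5). At least 1 muscarinic gene was found in 42 cells and at least 1 nicotinic gene in 31, all of which also held a muscarinic gene. At equal counts these numbers were 37 and 23, with both kinds in 20 cells. REG cell 1 held none of the 9 genes. *Chrm1* and *Chrm4* were found together in 24 cells, *Chrm1* alone of the pair in 16 and *Chrm4* alone in 2. After thinning these numbers were 15, 18 and 3. The shorter model of *Chrm4* lowers its detection beside *Chrm1* in both settings. *Chrna4* and *Chrnb2*, the subunits of the common brain channel, were found together in 4 cells, while 19 had only *Chrnb2* and 7 only *Chrna4*. *Chrnb2* was found in 7 of the 8 cells with *Chrna5* and in 7 of the 9 cells with *Chrna7*. After thinning it was found in 2 of 7 cells with *Chrna4*, 1 of 2 with *Chrna5* and 3 of 4 with *Chrna7*.

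Across the 43 cells, the CPM of *Chrm1* and *Chrm4* had a Spearman correlation of 0.32 (0.25 in batch 1 and 0.38 in batch 2). That of *Chrm4* with the total count was larger, 0.49, and that of *Chrm1* with the total count was 0.15. *Chrm4* with *Drd1* gave 0.15, and with *Rgs4*, a regulator that shortens Gi/o and Gq signals, 0.37. Over all other filtered genes the median correlation with *Chrm4* was 0.13. These are descriptions over cells that share mice, batches and depth. The 3 filtered genes most like *Chrm1* were *Slc4a3*, an anion exchanger (0.63), *Usp11*, a deubiquitinase (0.61), and *Fbxo31*, a ubiquitin ligase component (0.61), where 95% of genes were below 0.37. For *Chrm4* they were *Surf4*, a cargo receptor of the endoplasmic reticulum (0.68), *Dnm1*, the dynamin of synaptic vesicle retrieval (0.66), and *Cers1*, a ceramide synthase (0.65), with 95% of genes below 0.39. For *Chrnb2* they were *Kcmf1*, a ubiquitin ligase (0.60), *Cbfa2t2*, a transcriptional corepressor (0.60), and *Nav3*, a microtubule-binding protein (0.59), with 95% below 0.34. Each set was taken as the highest of 10801 correlations, so lying above those 95% levels was fixed by the choice. By batch, *Slc4a3* gave 0.47 and 0.74, *Surf4* 0.72 and 0.63, and *Kcmf1* 0.78 and 0.44.

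The other genes of the pathway place the receptors. For the counts past 1 in each list, the share over all 10802 filtered genes is 23.3%, with 9.04% higher and 14.3% lower. No such share is given for the other scalings, of which TMM and DESeq2 factors moved the median of all filtered genes by 0.14 and 0.32. Of 12 other nicotinic subunit genes, 1 passed the filter, *Chrnb1*, the β1 subunit known from muscle. Its median was 1.53 TPM and its log2 ratio −0.17, or 0.11 with DESeq2 size factors. The next by median was *Chrnb3* (0.22 TPM), and *Chrna9* and *Chrne* had no count in any cell. Of 8 genes for nicotinic receptor assembly and modulation, 6 passed, and none was past 1. *Ric3* was higher past 1 with TMM factors, and *Ric3* and *Ly6h* were with DESeq2 size factors. On summed counts *Lypd1* was lower past 1. The highest by median were *Ly6h* (66.7 TPM, log2 ratio 0.31) and *Lypd1* (25.1 TPM, −0.55), both members of the Ly6 family of proteins that bind nicotinic receptors, far above the subunits in median TPM. The direction of both depends on the scale: *Ly6h* was at 1.70 with DESeq2 size factors and −0.02 without HFD cell 19, and *Lypd1* was at 0.19 with DESeq2 size factors, −1.06 on summed counts and −1.44 on mean log2(CPM + 1).

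Of 7 genes for acetylcholine synthesis, transport and breakdown, only *Ache*, the enzyme that splits acetylcholine, passed the filter, and it was higher in HFD cells. It had a median of 8.57 TPM, and REG cells averaged 29.7 and HFD cells 92.3 CPM, for a log2 ratio of 1.63 (3.42 in batch 1 and 0.43 in batch 2). HFD cell 2 alone made up 45.2% of the HFD sum, and without it the ratio was 0.84. *Chat* had counts in 5 cells and *Slc5a7*, the choline transporter, in 12.

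Downstream of the muscarinic receptors, 7 of 8 G protein genes passed the filter and none was past 1. *Gnai3* (−0.74) was lower past 1 on summed counts (−1.13), on mean log2(CPM + 1), and with TMM or DESeq2 factors. Its batches lay on opposite sides of 0 (0.93 and −2.23). *Gnaz* (0.83) was higher past 1 with TMM or DESeq2 factors. *Gnai2* (193 TPM, log2 ratio 0.52) and *Gnao1* (110 TPM, −0.17), the Gi/o class that M2 and M4 use, had the highest medians and counts in all 43 cells. Their signs turned with the scale, to −0.22 for *Gnai2* on summed counts and 0.60 for *Gnao1* with DESeq2 size factors. Of the Gq class, used by M1, M3 and M5, *Gna11* had a median of 67.7 TPM with counts in all 43 cells, and *Gnaq* a median of 24.99 TPM. Of 15 effectors and regulators 13 passed, 1 higher and 1 lower past 1, where 9.04% and 14.3% of all filtered genes were. *Prkcb*, a protein kinase C activated downstream of phospholipase C (491 TPM, −0.06), and *Rgs9*, the striatal regulator of Gi/o signals (316 TPM, −0.37), were the highest. *Prkcb* turned to 0.55 with DESeq2 size factors, and *Rgs9* to 0.22 on summed counts, with −1.30 on mean log2(CPM + 1). *Arrb2*, a β-arrestin that binds activated receptors, was higher in HFD cells (5.12 against 20.6 CPM, log2 ratio 2.01, with 2.18 and 1.83 by batch), and HFD cell 13 made up 48.1% of its HFD sum. Without that cell the ratio was 1.14, on summed counts it was 0.95, and without the cells with microglia markers it was 2.08. *Grk3*, a receptor kinase, had a log2 ratio of −1.27, with batches on opposite sides of 0 (0.67 and −2.51), −0.29 on mean log2(CPM + 1) and −0.01 with DESeq2 size factors.

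**Figure D5:**
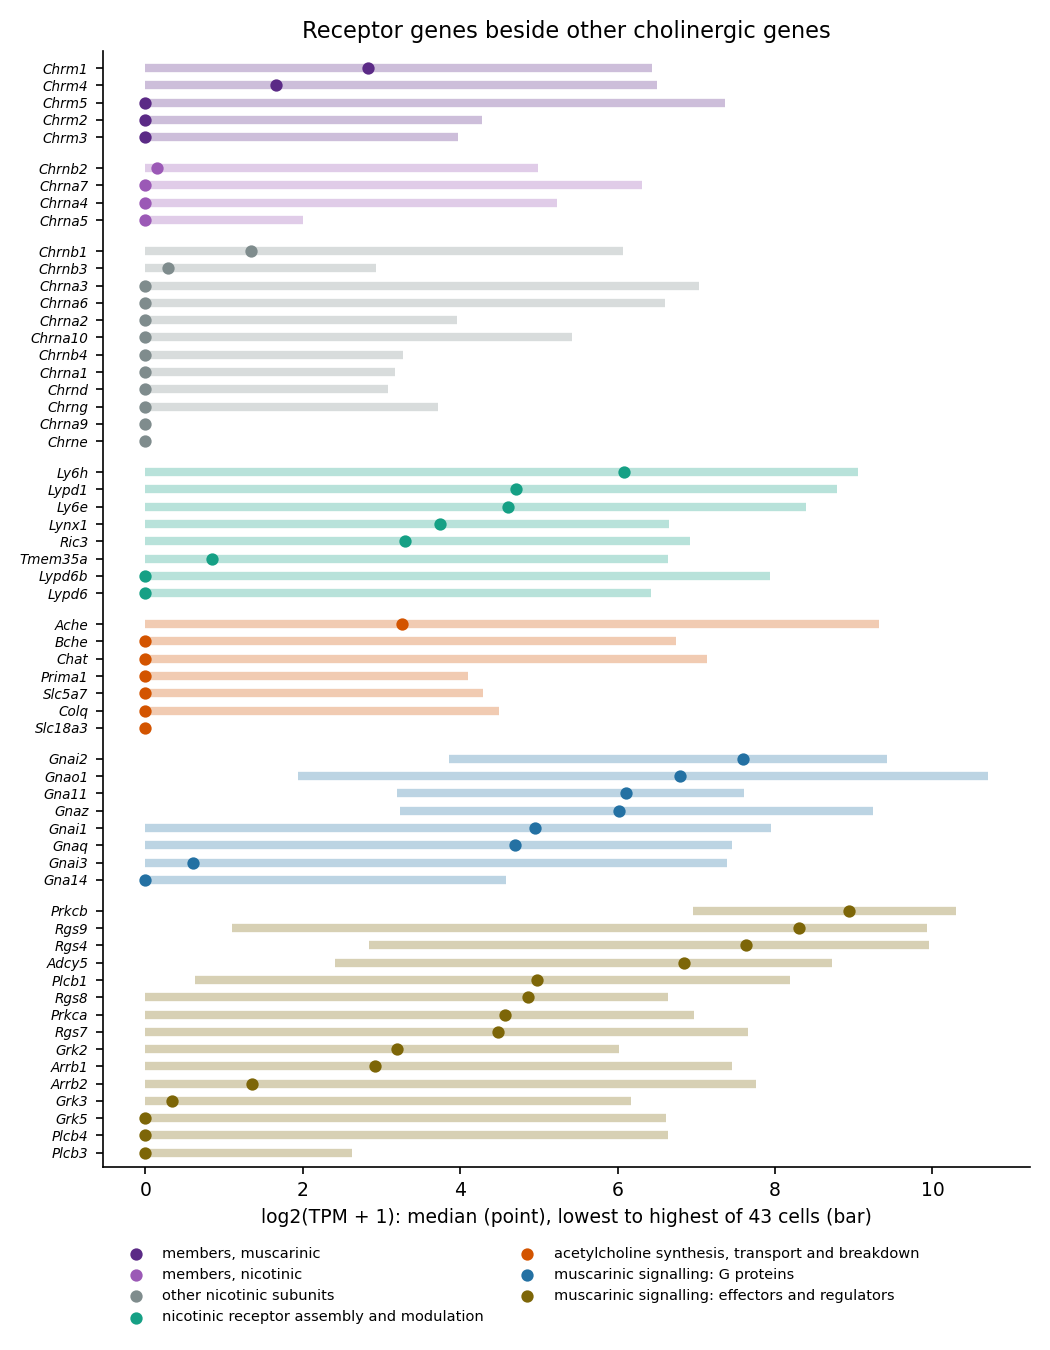
Each line is 1 gene, with a point at the median and a bar from the lowest to the highest of the 43 cells on a log2(TPM + 1) axis, coloured by gene list and ordered by median within the list. The G proteins and effectors led by *Gnai2* and *Prkcb* have medians of 193 and 491 TPM, against 6.10 TPM for *Chrm1*, and the genes for acetylcholine synthesis and transport have medians of 0.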

How the data were processed

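Libraries from 43 cells were analysed (23 REG, 20 HFD, grouped by the treatment label). The authors pseudo-aligned reads to the Ensembl GRCm38 transcriptome with kallisto, collapsed transcripts to gene symbols and dropped cells with few reads or genes. They deposited unnormalized estimated counts and, in another table, TPM per cell. Here each estimated count was divided by its cell's total and multiplied by 1000000 (CPM), and mean CPM in HFD was divided by mean CPM in REG on the log2 scale with no pseudocount. The filter (CPM above 15 in at least 5 cells, mean above 4) follows the study. Shares carry exact (Clopper-Pearson) 95% intervals and summed counts exact Poisson 95% intervals. Amplified reads are not independent molecules and cells of 1 mouse are not independent, so both kinds of interval are too narrow for a diet. Depth was 176961 to 16919555 counts per cell.

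The receptor genes, gene lists and marker lists were chosen with earlier results of these data known. All 9 receptor genes are named. Of each list, the 2 with the highest median TPM and those past 1 with 1 sign in both batches are named, and per filtered receptor gene the 3 genes with the highest Spearman correlation. *Drd1*, *Adar*, *Csf1r*, *Gna11*, *Ric3* and other single genes beside them were named, and other scalings of the list genes added, after values were seen. *Gpr52* of the D2 list is absent from the tables.

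Gene models and their overlaps were read from GENCODE M21 (GRCm38), and the start of *Chrm4* from RefSeq (GRCm38.p6). Word overlap used 31-base words on both strands. Alternatives were TPM, DESeq2 size factors, edgeR TMM factors, totals without *Lars2* and *Gm19220*, summed counts, mean log2(CPM + 1), thinning to 150000 counts, each batch alone, no filter, and leaving out single cells, cells with microglia markers and cells under 500000 counts. The ratio calculation was tested on simulated counts, where only medians over groups of genes were checked. That simulation gave all genes the same spread and no batches, so it does not bear on single genes led by 1 cell. Software was R 4.3.3 with DESeq2 1.42.0 and edgeR 4.0.16, and Python 3.11.15 with scipy 1.17.1, pandas 2.3.3, numpy 2.4.6 and matplotlib 3.10.9.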

Additional observations from a re-analysis of the deposited data

How the results depend on the processing

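The ratio between diets kept its sign under all 12 alternatives for *Chrm4* (−1.38 to −0.03) and *Chrna5* (0.20 to 2.43), under 10 of 12 for *Chrm1* (−0.04 to 1.23), under 7 of 12 for *Chrnb2* (−0.68 to 0.86), and under 9 of 12 for *Chrm3*, *Chrna4* and *Chrna7*. For *Chrm2* it kept its sign under all 10 that gave a value. Batch 1 alone gave none: its HFD cells had 0 counts, while its REG cells averaged 0.35 CPM from 1 cell, the opposite direction. *Chrnb2* was at −0.68 without the 9 cells under 500000 counts and at −0.35 without cells with microglia markers. Leaving out 1 cell at a time gave 0.30 to 0.84 for *Chrm1*, −0.89 to 0.10 for *Chrm4* and −0.52 to 0.64 for *Chrnb2*. The number of filtered receptor genes past 1 was 0 of 3 with all cells, 1 in batch 1 alone, 1 without cells with microglia markers, and 2 with no filter, where more genes enter. The median ratio of the 3 was 0.15, and −0.35 without cells with microglia markers. The cause was not tested. In HFD cells alone *Chrnb2* ranked 2 and *Chrm4* ranked 3 by median TPM, the reverse of their order over all cells. TMM factors moved the median of all filtered genes by 0.14, DESeq2 size factors by 0.32 and mean log2(CPM + 1) by −0.12, and relative to those shifts the ratios of *Chrm1*, *Chrm4* and *Chrnb2* are to be read. No paired analysis was possible because cells of the 2 diets share no number or mouse in the labels. Depth limits *Chrm3*, *Chrna5* and *Chrna7* most, since 12 of 14, 6 of 8 and 6 of 9 of their cells held fewer than 10 counts.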
